A study of Mus musculus with 9 samples.

Results

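The collagen genes studied here are all genes in the deposited count table whose symbol is Col, a number, the letter a and a number. The rule found 37 genes of 24296, and all 37 had at least 1 count. Female 129/Sve mice aged 8 weeks gave the cells, which were taken from the entire left knee and profiled by Seq-Well, a method that captures single cells on barcoded beads in microwells and reads the 3′ side of polyadenylated RNA. The 5 sick mice had been sensitised to methylated bovine serum albumin (mBSA) and then injected with mBSA in the knee, which triggers antigen-induced arthritis. The 4 healthy mice received phosphate-buffered saline in the knee instead. Joints were taken 1 week after the injection. Each mouse gave 1 library, and the label numbers are kept below (healthy 1 to 4, and sick 1, 3, 4, 5 and 6).

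Collagens are trimers of chains that each carry a long repeat of glycine-led triplets. Fibrillar collagens, such as types I, II, III, V and XI, build the rope-like fibrils of bone, cartilage, tendon and synovium, while type IV collagen forms the sheet-like network of basement membranes under endothelium and around muscle and nerve. Type VI makes beaded filaments near the cell surface, and the fibril-associated collagens with interrupted triple helices (FACIT) sit on the surface of fibrils. In joints, fibroblasts of the synovium and its surrounds are known for types I and III, osteoblasts for type I, and chondrocytes for types II and XI.

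Of 16751 deposited cells, 16749 were kept, 4549 from healthy and 12200 from sick mice, and 8 cell barcodes occurred in more than 1 library. Kept counts ranged from 896930 to 4675909 per mouse, and levels below are counts per 1000000 kept counts (CPM) of a mouse or, where said, of a cell class. Mitochondrial genes took 5.48% to 10.3% of counts in healthy mice and 3.09% to 6.05% in sick mice, and haemoglobin genes 17.6% to 39.7% and 10.2% to 27.9%. Most cells were blood and marrow cells: 15606 of the 16749 carried too few markers of connective tissue, vessel wall, muscle or nerve to be placed in any of those classes. A cell was put in a class when it had counts for at least 2 of that class's marker genes and for more of them than of any other class. No collagen gene was among the markers. With haemoglobin, mitochondrial and rRNA-like counts left out, Col3a1 had a whole-joint log2 fold change of 3.96, beside 3.95 with them, and no collagen gene was called in either case. Summed CPM, which are not rescaled, moved more and are given both ways below.

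Col3a1 and Col11a1, which separated the source cells described below, are shown by the 250 bases upstream of their RefSeq start (GRCm38.p6), since each had 1 count or none in the class where the other was high. Capitals mark matches to TATAAA, to CCAAT or to GGGCGG on either strand. The first is Col3a1, chr1:45311288-45311537, plus strand, and the second Col11a1, chr3:114030290-114030539, plus strand.
Col3a1: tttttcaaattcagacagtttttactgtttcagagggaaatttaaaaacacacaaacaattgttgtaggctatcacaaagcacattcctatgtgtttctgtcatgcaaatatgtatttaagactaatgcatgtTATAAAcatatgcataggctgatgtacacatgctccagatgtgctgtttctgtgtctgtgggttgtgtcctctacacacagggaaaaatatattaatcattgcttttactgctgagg
Col11a1: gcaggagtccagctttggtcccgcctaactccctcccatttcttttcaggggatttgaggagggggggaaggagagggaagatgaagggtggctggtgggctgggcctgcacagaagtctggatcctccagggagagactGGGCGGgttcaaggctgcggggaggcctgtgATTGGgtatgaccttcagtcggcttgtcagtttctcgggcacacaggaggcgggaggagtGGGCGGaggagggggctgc
The Col3a1 window held 1 TATAAA and neither of the other motifs. The Col11a1 window held 1 CCAAT (written ATTGG on this strand), 2 GGGCGG and no TATAAA. Of 32851 RefSeq windows of 250 bases, 12.37% held TATAAA, 33.85% CCAAT and 32.74% GGGCGG on either strand. No match overlapped another. The promoter table held 28 of the 37 genes.

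The 37 genes had 16767 counts in 1744 cells. The 11 fibrillar genes took 95.1% of these counts, and the type I pair Col1a1 and Col1a2 alone took 72.8%. The 7 FACIT genes took 1.41%, the 3 type IV genes of basement membranes 1.33% and the 6 type VI genes 1.28%. Multiplexin, network-forming, transmembrane and the remaining collagens took 0.292%, 0.262%, 0.155% and 0.179%. These are shares of 3′ counts, which do not need correction for transcript length. Of the 37 genes, 17 had under 20 counts each over all mice.

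Collagen counts came from few cells. The 21 cells richest in them held 50% of the counts and 253 cells held 90%. The richest cell had 696 collagen counts among its 3012 counts, and the 16 richest cells were all osteoblast-marker cells. The 80 osteoblast-marker cells held 61.1% of collagen counts, the 135 fibroblast-marker cells 25.03%, and the 15606 cells outside the marker classes 11.1%. Collagen made up 8.96% of all counts in osteoblast-marker cells, 1.99% in fibroblast-marker cells and 0.0104% outside the classes.

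The markers placed the cells, so their presence in a class follows from the rule and is given as a description. Of the fibroblast-marker cells, 69.6% had a count of Dcn, the fibril-binding proteoglycan decorin, and 54.1% of Prg4, the joint lubricant lubricin. Of the osteoblast-marker cells, 90.0% had Bglap, which encodes osteocalcin, and 77.5% had Ibsp, bone sialoprotein, but 47.5% also had Dcn. The 9 healthy fibroblast-marker cells rested on fewer markers than the 126 sick ones, since 11.1% against 62.7% of them had counts for at least 3 markers. Dcn was found in 2 of the 9 healthy and 92 of the 126 sick cells, Prg4 in 5 and 68, and the marker Pi16 in 4 and 41. Pi16 also had a count in 4.2% of the cells outside the classes, and Prg4 in 1.14%. Neutrophil markers took 8.81% and erythroid markers 11.5% of the counts of fibroblast-marker cells, 6.71% and 20.6% in osteoblast-marker cells, and 12.4% and 22.9% in the cells outside the classes. The classes' own markers took 1.55% in fibroblast-marker and 3.47% in osteoblast-marker cells. No doublet caller was run, and the part of these blood cell counts in the results was not tested.

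**Figure D1:**
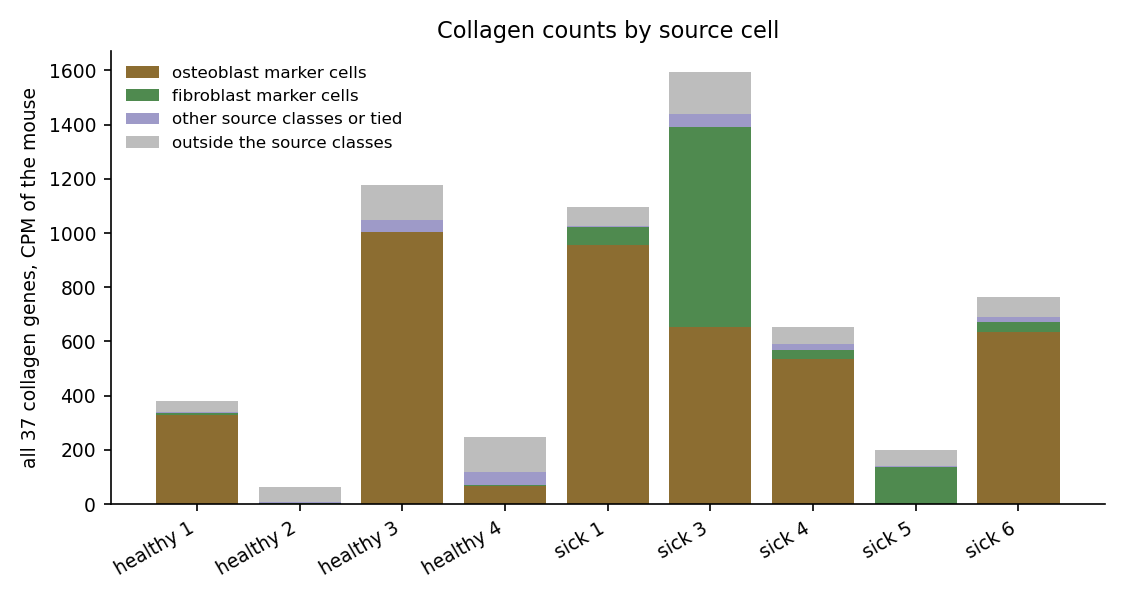
CPM of each mouse, all 37 genes summed, stacked by the class of the cell that held them. Osteoblast-marker cells hold most of the counts in 5 mice, while fibroblast-marker cells hold 67.9% in sick 5 and 46.4% in sick 3.

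The source differed from mouse to mouse. Osteoblast-marker cells held between 81.6% and 87.2% of the collagen counts in healthy 1, healthy 3, sick 1, sick 4 and sick 6. Fibroblast-marker cells held 46.4% in sick 3 and 67.9% in sick 5. In healthy 2, which had no osteoblast-marker cell, 89.5% of only 57 collagen counts lay outside the classes, and in healthy 4 the share outside was 53.0%. Sick 3 gave 90 of the 135 fibroblast-marker cells, and each healthy mouse gave 2 or 3.

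The first comparison asked which collagen genes differed between sick and healthy joints when all cells of a mouse were summed. None of the genes tested passed: 0 of 7 were called by edgeR's quasi-likelihood test at a false discovery rate of 0.05, where 0.94% of all 10323 genes tested were called. Of the 7, 1 had an unadjusted p under 0.05. DESeq2 called that gene, Col3a1, and no other collagen gene, where it called 2.44% of all genes. The 7 genes tested were all fibrillar. Their median log2 fold change was 0.26, beside -0.02 over all genes tested, with 6 of the 7 above 0. Fewer cells of a type and less RNA per cell cannot be told apart in these sums.

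Col3a1, which encodes the chain of type III collagen found in pliable tissues and in wound repair, lies on chromosome 1 at 45311538 to 45349706 (GRCm38, GENCODE M21, plus strand). Its level was 3.96, 0, 2.15 and 13.3 CPM in healthy 1 to 4. It was 46.1, 357, 17.6, 72.2 and 19.3 CPM in sick 1, 3, 4, 5 and 6. In these unscaled CPM every sick mouse was above every healthy mouse, and sick 3 was far above the others. The separation depends on the scaling, since edgeR's TMM scaling factors were 0.776 in healthy 4 and 1.12 in sick 4. Divided by these factors, the level of healthy 4 lies above that of sick 4, and the groups overlap. Col3a1 was the only collagen gene whose groups did not overlap in unscaled CPM, among all 37 and among the 7 tested. Of the 10323 genes tested, 6.93% did not overlap either. The log2 fold change was 3.95 ± 0.98 (SE, n = 4 and 5), with an edgeR adjusted p of 0.0807. Leaving out sick 4 or sick 6 gave edgeR adjusted p values of 0.0338 and 0.0384. Without sick 3 the log2 fold change was 2.60 (edgeR adjusted p 0.107), and without healthy 4 it was 5.20 (0.104).

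The type I chains varied as widely among healthy as among sick mice. Col1a2 was at 221, 19.0, 557 and 88.9 CPM in healthy 1 to 4. In sick 1, 3, 4, 5 and 6 it was at 562, 544, 279, 48.5 and 376 CPM. The groups overlapped, with healthy 3 near the top of the sick range and sick 5 below 3 of the healthy mice. The log2 fold change was 0.26 ± 0.68 (SE), edgeR adjusted p 0.895. Col1a1, the other type I chain, followed it with 168 ± 200 CPM in healthy (SD, n = 4) and 274 ± 159 CPM in sick mice (SD, n = 5), a log2 fold change of 0.22 ± 0.71 and an edgeR adjusted p of 0.922. Leaving out healthy 3 raised the log2 fold changes to 1.54 for Col1a2 and 1.72 for Col1a1, and leaving out healthy 2 turned them to -0.11 and -0.14, none of them called.

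The chains that copolymerise with types I and II gave the same outcome. Col5a2, a regulator of fibril diameter that neighbours Col3a1 on chromosome 1, had a log2 fold change of 0.74 ± 0.62 (edgeR adjusted p 0.637), which was 1.90 without healthy 3 and 0.18 without sick 3. Col5a1, its partner chain, had 0.36 ± 0.32 (0.66), and 0.07 without sick 3. Col11a1 was at 4.62, 2.23, 52.3 and 13.3 CPM in healthy mice and at 38.7, 32.5, 25.2, 1.06 and 30.5 CPM in sick mice, with a log2 fold change of 0.00 ± 0.71, or 1.58 without healthy 3. Col11a2 had a log2 fold change of -0.60 ± 0.69 (edgeR adjusted p 0.734), which became 1.08 without healthy 3.

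**Figure D2:**
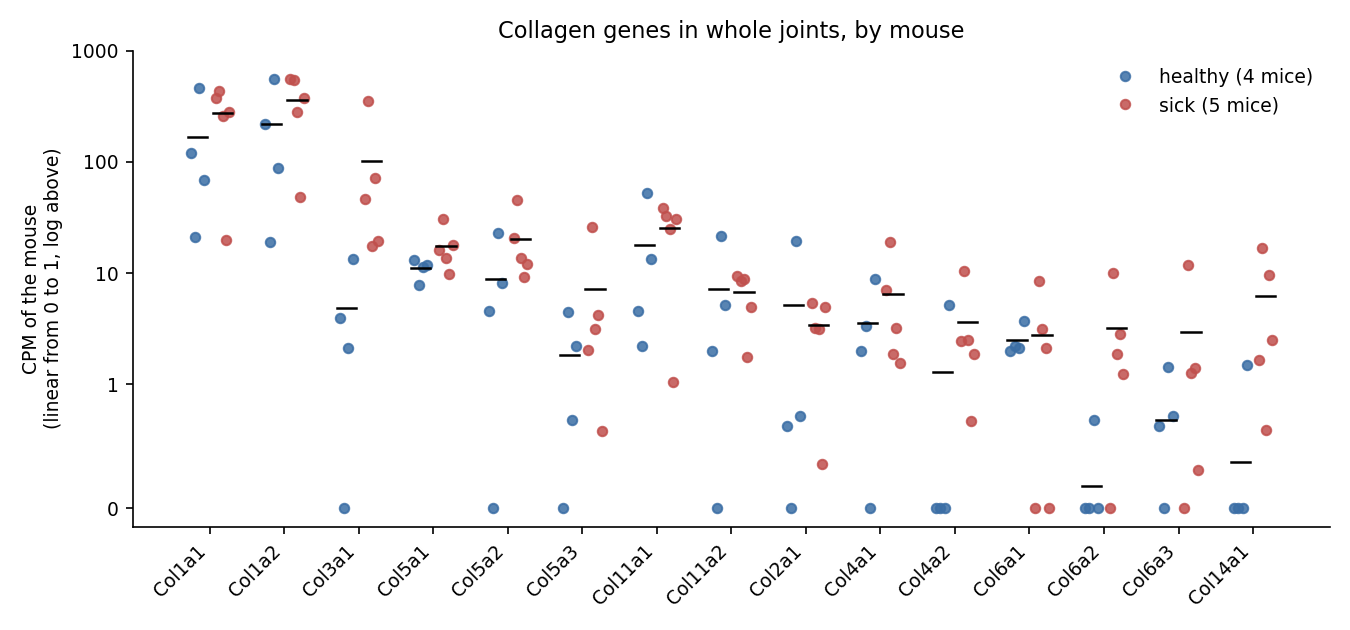
CPM of 15 collagen genes in the whole joint, 1 point per mouse (blue healthy, red sick), black lines at group means, with a vertical axis that is linear from 0 to 1 and logarithmic above. In these unscaled CPM, Col3a1 is the only gene shown whose sick mice all lie above its healthy mice.

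The other 30 genes did not pass the filter on low counts, with 3 to 154 counts each over the 9 mice. Among these, 23 had a higher mean CPM in sick mice and 7 a lower one. These means are unscaled CPM, and the share of all genes with a higher mean in sick mice was not worked out. The 23 and 7 are therefore not read as a result about collagens. Not all of the 30 genes had lower totals than the tested genes: Col5a3 had 154 and Col4a1 141 counts, beside 138 for the tested Col11a2. Of the counts of Col5a3 and Col4a1, 122 and 89 came from sick 3. Sick 3 was the deepest library and the one with most fibroblast-marker cells, and several of the 30 genes were at their highest there. Col5a3, a type V chain, was at 26.1 CPM in sick 3 and between 0 and 4.46 CPM in every other mouse. Col6a3, a type VI chain, was at 11.98 CPM in sick 3 and at most 1.43 CPM elsewhere. Col14a1, a FACIT chain, was at 16.9 CPM in sick 3 and 9.56 CPM in sick 5, and at most 2.49 CPM in the other mice. Col2a1, the cartilage collagen, was at 19.3 CPM in healthy 3 and at most 5.36 CPM elsewhere, and 22 of its 27 counts in healthy 3 lay in 1 chondrocyte-marker cell.

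Fibrillar genes summed to 449 ± 486 CPM in healthy (SD, n = 4) and 821 ± 494 CPM in sick mice (SD, n = 5). The difference of 372 CPM was 198 CPM without haemoglobin, mitochondrial and rRNA-like counts, 206 without sick 3, 241 without healthy 2 and 607 without healthy 3. The 3 type IV genes summed to 4.85 ± 6.30 and 10.7 ± 11.1 CPM. Their difference of 5.80 CPM was 0.98 without sick 3, 8.88 without healthy 4 and 3.90 without haemoglobin, mitochondrial and rRNA-like counts. Type IV made up 0.531%, 5.66%, 0% and 6.13% of the type IV and fibrillar counts together in healthy 1 to 4, and between 0.580% and 2.43% in sick mice. The groups overlapped, and the 0% in healthy 3 came from 0 of 1608 counts, which allows a share of up to 0.229% (exact binomial bound, counting error only). Col3a1 made up 1.15%, 0%, 0.211% and 7.79% of type I and III counts in healthy mice. In sick 1, 3, 4, 5 and 6 it made up 4.70%, 26.7%, 3.18%, 51.4% and 2.86%, so healthy 4 lay above 3 of the 5 sick mice. These sums and shares were not tested.

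The type IV chains Col4a1 and Col4a2 are divergent neighbours on chromosome 8 (GRCm38.p6), with start sites at 11312826 on the minus strand and 11312805 on the plus strand, so that their first 22 bases overlap. Col4a1 had 141 counts and Col4a2 had 74. Col4a1 was at 1.98, 3.34, 0 and 8.89 CPM in healthy mice and at 7.003, 19.0, 1.89, 3.19 and 1.56 CPM in sick mice. Both genes were at their highest in sick 3. Col4a3, a type IV chain of specialised basement membranes, had 8 counts.

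The remaining types were near the limit of detection. Of the type VI genes, Col6a1 was at 2.52 ± 0.80 CPM in healthy (SD, n = 4) and 2.77 ± 3.51 CPM in sick mice (SD, n = 5), and Col6a2 at 0.179 ± 0.358 and 3.20 ± 3.96 CPM. Both lie on chromosome 10. Col22a1 and Col12a1, FACIT chains, had 49 and 29 counts. Of the network-forming genes, Col8a1 had 39 counts and Col10a1, a marker of hypertrophic cartilage, had 5. The multiplexins Col15a1 and Col18a1, which sit at basement membranes, had 30 and 19 counts, and 23 and 16 of these came from sick 3. The transmembrane genes Col23a1, Col13a1 and Col17a1 had 12, 11 and 3 counts. The anchoring fibril gene Col7a1 had 14, Col26a1 had 11 and Col28a1 had 5. Col27a1, Col9a2, Col16a1 and Col24a1 had 24, 14, 10 and 10 counts, and 12 of the 14 Col9a2 counts were in healthy 3. The last 5, Col6a4, Col6a5, Col6a6, Col9a3 and Col20a1, had 6 or 7 counts each.

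The share of fibroblast-marker cells was 0.202% ± 0.045 in healthy (SD, n = 4) and 0.810% ± 0.895 in sick mice (SD, n = 5). The difference did not pass an exact two-sided permutation test over mice (p = 0.198, adjusted p = 0.976 over 7 classes, smallest possible p 0.00794). The difference of 0.608 percentage points was 0.226 without sick 3 and 1.13 with cells of at least 400 genes, and with 3 markers per cell it was 0.488 (exact permutation p = 0.0556, adjusted p = 0.389). The share of osteoblast-marker cells was 0.451% ± 0.573 and 0.445% ± 0.262 (exact permutation p = 0.976). Healthy 3 held the highest osteoblast share, 1.29%.

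A test of sick against healthy within a class was set to need 3 healthy and 3 sick mice with 20 or more cells each, which neither the fibroblast nor the osteoblast class met, so their values stand without a test. In fibroblast-marker cells, Col3a1 was at 1041, 0, 0 and 594 CPM of the class in healthy 1 to 4, which rest on 2, 2, 2 and 3 cells. It was at 9036, 9789, 5512, 6812 and 3974 CPM in sick 1, 3, 4, 5 and 6, from 5, 90, 5, 20 and 6 cells. The sick values were all higher, while the 9 healthy cells together held 8 Col3a1 counts and also carried fewer fibroblast markers, as given above. In osteoblast-marker cells, Col1a1 was at 45674, 24193 and 8402 CPM in healthy 1, 3 and 4, from 2, 18 and 4 cells, and in healthy 1 a single cell held all 495 collagen counts of the class. It was at 64237, 50060, 33033, 688 and 27834 CPM in the sick mice, from 11, 17, 5, 2 and 21 cells. The groups overlapped, and the value of 688 in sick 5 is 1 count.

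**Figure D3:**
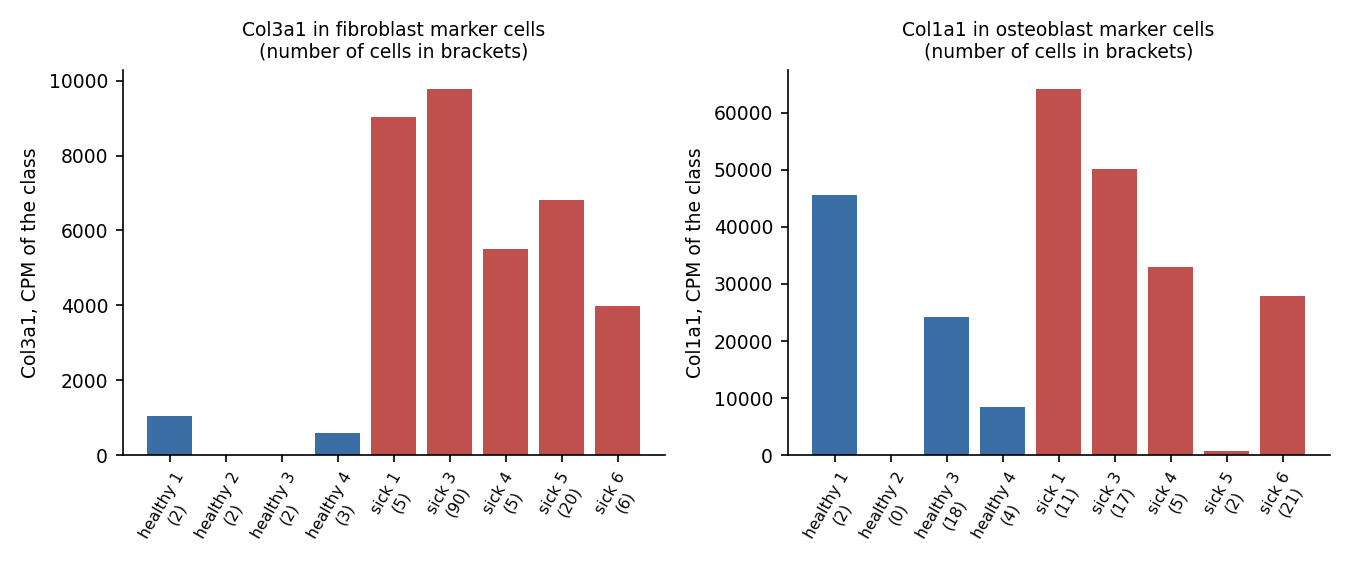
CPM of Col3a1 within fibroblast-marker cells and of Col1a1 within osteoblast-marker cells of each mouse (blue healthy, red sick), with the number of cells under each bar. Healthy bars for Col3a1 rest on 2 or 3 cells each, and Col1a1 overlaps between the groups.

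Skeletal muscle was the only source class with enough cells for the test within a class, and no collagen gene there passed the filter on low counts, where 0.479% of the 1877 genes tested were called. In cells outside the marker classes, 0 of 4 collagen genes tested were called, where 1.04% of 9816 genes were called. Col3a1 there had a log2 fold change of 1.97 ± 0.90 (edgeR adjusted p 0.33) and was at 46.6 CPM in sick 3. Col1a1 and Col1a2 had -0.98 ± 0.47 and -0.69 ± 0.42, and Col5a1 had 0.07 ± 0.33. Col1a2 had a count in 2.72% of these cells (median 875 counts per cell), against 65.9% of fibroblast-marker cells (median 1231) and 78.8% of osteoblast-marker cells (median 1144).

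The clearest differences lay between the 2 source cell types. Fibroblast-marker and osteoblast-marker cells were compared within the 8 mice that had at least 2 of each, 133 and 80 cells in all, with the mouse as a term in the fit. This comparison was added after the data were seen. Its filter and scaling were also changed after a first fit: with edgeR's filterByExpr and TMM, which were used for the whole joint, only 43 genes were tested, 2 of them collagens (Col1a1 and Col1a2), and both were called. Of all 43 genes, 7 were called there. The fit reported here keeps genes with at least 20 counts and scales with TMMwsp, which tests 2344 genes, 16 of them collagens. The p values of this fit therefore describe a choice made with a result in view.

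In that fit, 3 collagen genes were higher in fibroblast-marker cells, where 1.19% of all genes tested were, and 5 were higher in osteoblast-marker cells, where 1.11% were. The other 8 were not called. Col3a1 had 1775 counts in fibroblast-marker cells and 0 in osteoblast-marker cells, which is at least 323-fold higher when the empty class is set to a floor of 3 counts summed over its cells (edgeR adjusted p 4.5e-11). It was higher in fibroblast-marker cells in 7 of 8 mice and at 0 in both in the other. Col5a3 had 118 counts against 0, at least 21.5-fold higher (edgeR adjusted p 0.00838), and Col14a1 had 98 against 0, at least 17.8-fold higher (0.00647). Each of these last 2 was higher in 4 mice and at 0 in both classes in the other 4. Without sick 3, Col5a3 had too few counts to be tested and Col14a1 was no longer called (edgeR adjusted p 0.068). Without sick 6 Col14a1 was not called either (0.0593). With no filter on low counts neither was called (edgeR adjusted p 0.0699 for Col5a3 and 0.0508 for Col14a1), and DESeq2 gave neither an adjusted p.

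The type I chains were lower in fibroblast-marker cells. Col1a1 was at 3105 CPM there and 36246 CPM in osteoblast-marker cells, 11.7-fold higher in the latter when cells of all mice were summed. The fit, which compares within each mouse and scales with TMMwsp, gave a log2 difference of -5.19 ± 0.88 (edgeR adjusted p 8.9e-07), or -4.45 with no scaling factors. Col1a2 was 9.95-fold higher in osteoblast-marker cells, with a log2 difference of -4.84 ± 0.87, or -4.10 with no scaling factors. Both were higher in osteoblast-marker cells in 7 of 8 mice.

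The type XI chains and the cartilage collagen Col2a1 were also on the osteoblast side. Col11a1 had 1 count in fibroblast-marker and 426 in osteoblast-marker cells, a ratio of 781 with a 95% counting interval of 139 to 30915 (edgeR adjusted p 3.1e-10). Col11a2 had 1 and 98 counts. Col2a1 had 0 and 40 counts, at least 24.4-fold higher in osteoblast-marker cells. DESeq2 gave Col2a1 no adjusted p. Chondrocyte markers took 0.00175% of the counts of osteoblast-marker cells, with 2 of the 6 chondrocyte markers in the file detected there. Their part in the Col2a1 counts was not tested.

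Basement membrane and beaded filament chains were not called in this fit, and the calls of 3 of them turned on its settings. Col4a1 had 82 and 2 counts (edgeR adjusted p 0.119), Col4a2 had 44 and 0 (0.0673) and Col6a3 had 53 and 0 (0.0829). With no scaling factors these were called (0.0181, 0.00975 and 0.0171), and with at least 50 counts a gene Col4a1 (0.0204) and Col6a3 (0.0416) were. Col6a2 had 44 and 1 counts (0.599) and Col6a1 had 35 and 2 (0.997). Col5a2 ran the other way, at 816 CPM in fibroblast-marker and 1443 CPM in osteoblast-marker cells (edgeR adjusted p 0.0938). Col5a2 was called as higher in osteoblast-marker cells under 5 other settings: at least 5 cells of each class (0.00321), no scaling factors (0.0259), at least 50 counts a gene (0.00914), without sick 3 (0.0315) and without sick 5 (0.00372). Col5a1 had a log2 difference of 0.31 ± 0.85 (0.997).

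**Figure D4:**
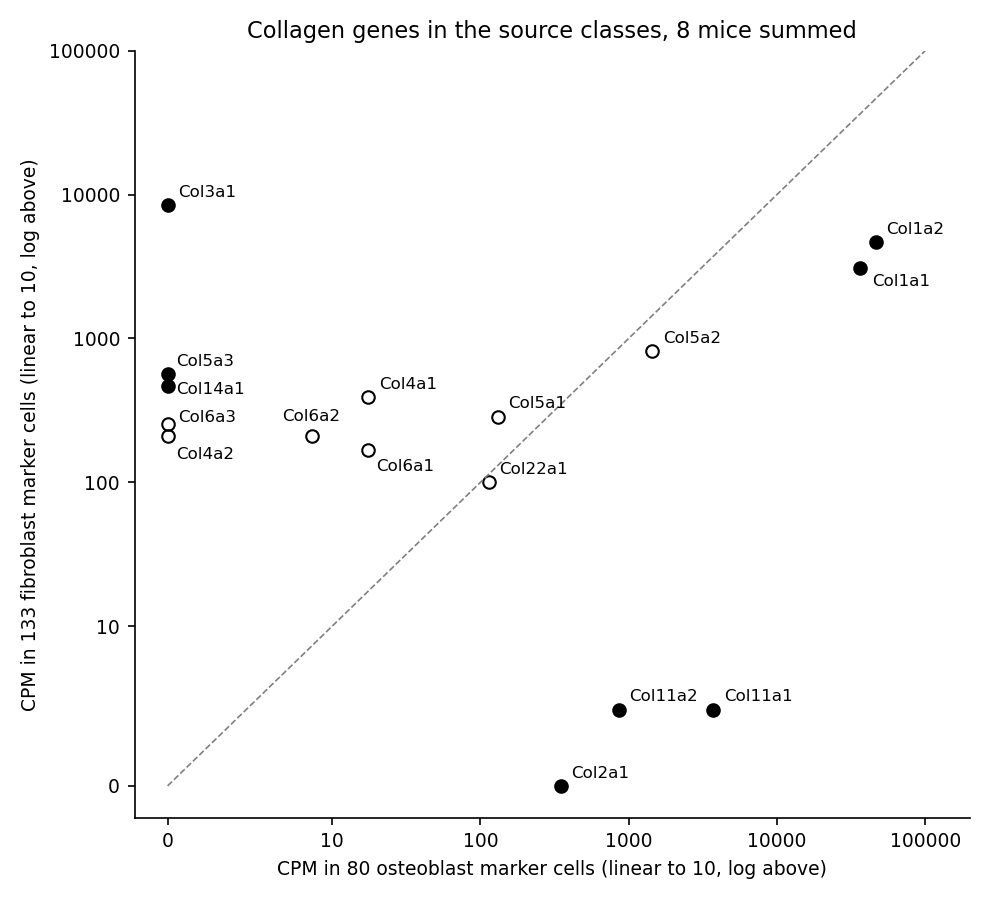
CPM of 16 collagen genes in fibroblast-marker cells (vertical) against osteoblast-marker cells (horizontal), 8 mice summed, with axes linear to 10 and logarithmic above. Filled points were called by edgeR and the dashed line marks equal levels. Col3a1, Col5a3 and Col14a1 lie on the vertical axis with 0 counts in osteoblast-marker cells.

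The split was visible cell by cell. Col3a1 was found in 93 of 135 fibroblast-marker cells and 0 of 80 osteoblast-marker cells. Col11a1 was found in 1 and 44 of them, and Col1a2 in 89 and 63. Of the 93 fibroblast-marker cells with Col3a1, 82 also had Col1a2.

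Col5a1 counts were spread over many cells. Its 349 counts lay in 287 cells, with at most 7 in a cell, and 251 of them, 71.9%, lay outside the marker classes. The share outside was 12.3% for Col3a1 and 7.45% for Col1a2, and 70.8% for Col27a1, a fibrillar gene with 24 counts. There Col5a1 was at 23.6 CPM in erythroid-marker cells (95% counting interval 19.3 to 28.6), 11.6 in neutrophil-marker cells (9.21 to 14.5) and 3.49 in monocyte- or macrophage-marker cells (1.13 to 8.14). B cell-marker cells had 0 counts (interval 0 to 7.92 CPM), and the 4593 cells of no blood class were at 13.4 CPM (10.3 to 17.1). In the erythroid-, neutrophil- and monocyte- or macrophage-marker cells, Col1a1 was at 25.4, 22.8 and 12.6 CPM and Col1a2 at 31.5, 28.7 and 22.3 CPM. Col5a1 was higher in erythroid-marker cells than in the other cells outside the marker classes in 8 of 9 mice, all but healthy 1, with 22.2 ± 11.3 against 9.43 ± 4.39 CPM (SD, n = 9). The erythroid values of single mice rest on 3 to 31 Col5a1 counts, and the 95% counting interval in healthy 2 was 4.04 to 37.9 CPM. The comparison and the reduced marker lists behind it were chosen after genes of Col5a1-positive cells had been inspected, so these values are a description with no test.

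**Figure D5:**
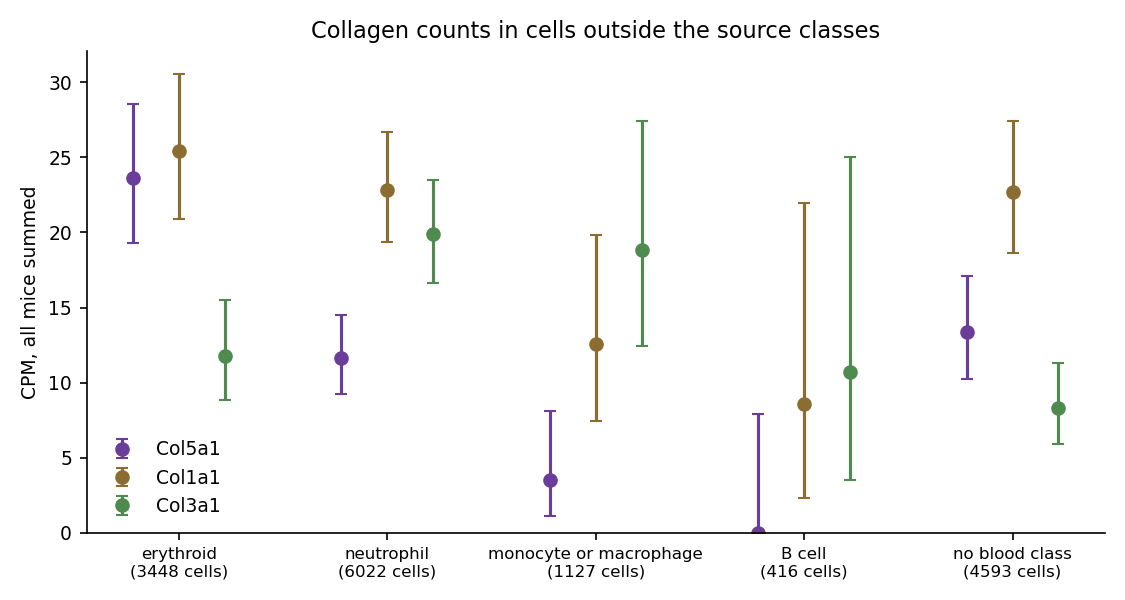
CPM of Col5a1, Col1a1 and Col3a1 in cells outside the source classes, all mice summed, by blood cell class, with 95% exact Poisson intervals that cover counting error only. Col5a1 is at 23.6 CPM in erythroid-marker cells and 3.49 CPM in monocyte- or macrophage-marker cells.

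Genes that make, crosslink, degrade or bind collagen were described from 5 lists. In the whole joint none of their 18 tested genes was called, where 0.94% of all genes tested were, of 6 for synthesis and processing, 4 for crosslinking and fibril assembly, 4 for degradation and uptake, 3 receptors and 1 basement membrane partner. The smallest p among them belonged to Timp2, an inhibitor of matrix metalloproteinases, with a log2 fold change of 1.10 ± 0.33 (edgeR adjusted p 0.137). Dcn had 1.72 ± 0.63 (0.237), and Agrn, the basement membrane proteoglycan agrin, had 0.88 ± 0.36 (0.286). The collagenase Mmp8 had 0.44 ± 0.21 (0.36) and the gelatinase Mmp9 had 0.43 ± 0.23 (0.44). The other genes with the smallest p of their lists had log2 fold changes of 0.53 (P4ha1), 0.27 (Plod3), -0.12 (Mia3), 0.35 (Fn1), 0.50 (Sparc), -0.22 (Itgb1), 0.28 (Itga1) and 0.03 (Lair1).

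Between the source classes, 36 genes of these lists were tested. Of these, 2 were higher in fibroblast-marker cells, where 1.19% of all genes tested were, and 2 in osteoblast-marker cells, where 1.11% were. Dcn, Lum, Fmod and Ogn of the crosslinking list are also fibroblast markers, so their direction, where tested, follows from the rule. None of them was called. Class markers were not taken out of the genes tested, here or for the collagen genes above. Fn1, fibronectin, had a log2 difference of 3.75 ± 0.81 (edgeR adjusted p 0.000438) and Timp2 had 3.93 ± 0.99 (0.00509). Sparc, osteonectin, had -3.16 ± 0.82 (0.00755), and Lox, the lysyl oxidase that crosslinks fibrils, had -2.73 ± 0.81 (0.0349). No gene of synthesis and processing was called, of 11 tested, and the smallest p there was that of Serpinh1, a collagen chaperone, at -2.08 ± 0.74 (0.141). The others named by the same rule and not called had log2 differences of -2.34 (Plod2), -2.28 (Fkbp10), 3.42 (Timp3), 4.43 (Mmp3), 0.72 (Itgb1), 4.48 (Lamc1), 4.14 (Lama4) and 3.86 (Lamb1).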

How the data were processed

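Raw counts per gene and cell were used as deposited by the authors, 1 table for all mice. Per the labels' protocols, reads were handled by the Drop-seq Core Computational Protocol 1.0.1 with bcl2fastq, Picard and STAR, and sequencing rounds of a sample were merged. The labels' protocols name GRCh38 for these mouse libraries, and the submitters' processing notes name GRCm38 and mm9. The build of the counts is therefore not settled, and gene positions here come from GENCODE M21 by symbol. Whether counts are of unique molecular identifiers is not given in the sources used here.

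A cell was kept if 200 or more genes had a count and mitochondrial genes took no more than 20%; counts of kept cells were added up per mouse. CPM are unscaled by TMM. Sums were tested with edgeR 4.0.16 (filterByExpr, TMM, quasi-likelihood, Benjamini-Hochberg over all genes tested), with DESeq2 1.42.0 as an alternative. On simulated data for the whole joint, 96% of genes changed 4-fold and 50% of those changed 2-fold were called. Of the 158 genes called there, 12 were unchanged. For the fibroblast and osteoblast comparison, 71% of genes changed 16-fold and 23% of those changed 4-fold were called. Within each simulation every gene had the same dispersion, 0.0526 for the whole joint and 0.261 for the class comparison. Collagen genes can vary more, as with Col1a1 at 168 ± 200 CPM in healthy joints (SD, n = 4). The simulated shares therefore do not carry over to the collagen genes. That comparison, its filter of at least 20 counts and its TMMwsp scaling were chosen after results were seen, the filter and scaling after a first fit with filterByExpr and TMM. Members, marker lists and gene lists were chosen with earlier results of these data known. Named genes were called genes, the 3 highest of each structural type and those with an unadjusted p under 0.05, and of each list the called genes and the 3 with the smallest p. Some low genes are given by counts only.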

Additional observations from a re-analysis of the deposited data

Results flagged for a closer look

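Of 44 groups of 4 or 5 mice examined, 12 had 1 mouse far from the others by Dixon's criterion. Sick 3 stood apart from the other sick mice in 6 of them: Col3a1 at 357 CPM, Col5a3 at 26.1 CPM, Col4a2 at 10.5 CPM, Col6a3 at 11.98 CPM, Col6a2 at 10.1 CPM and the summed type IV genes at 29.9 CPM. Healthy 4 stood apart from the other healthy mice for Col14a1 at 1.48 CPM, Col4a2 at 5.19 CPM, Col6a1 at 3.71 CPM and the Col3a1 share of type I and III counts at 7.79%. Healthy 3 stood apart for Col2a1 at 19.3 CPM, with 22 of its 27 counts in 1 cell, and Col6a2 at 0.717 CPM. Several of the healthy values rest on 1 to 7 counts.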

How the results depend on the processing

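In the whole joint, 1 collagen gene was called with DESeq2, where 252 of all 10323 genes were. With no filter on low counts 1 of 37 was called, where 282 of 24296 genes were. Leaving out single mice gave 0 or 1, with 1 without sick 4 (126 of 10913 genes called) and without sick 6 (86 of 10128). In each of these cases the called collagen gene was Col3a1. Within the skeletal muscle class, no filter on low counts gave 1 called collagen gene of 23, where 39 of 19801 genes were called. This was Col1a2, lower in sick mice. Of its 55 counts in the class, 23 came from healthy 4, at 168 CPM of the class. Healthy 1 to 3 were at 14.6, 38.6 and 24.2 CPM, which overlapped the sick mice at 0 to 27.9 CPM. The comparison of fibroblast- with osteoblast-marker cells was added after the data were seen. There filterByExpr and TMM, the version run first, called 2 of 2 collagens tested and 7 of all 43 genes tested. The reported fit called 8 of 16 collagens and 54 of all 2344 genes. DESeq2 called 5 collagens and 15 of all 2344 genes, with 10 of the 16 collagens left without an adjusted p. Other settings gave 6 to 12 collagens. The 6 came with no filter on low counts (29 of 15468 genes called) and the 12 with no scaling factors (95 of 2344). Leaving out single mice gave 7 to 9 collagens, where 30 to 56 of all genes tested were called. With 3 detected markers per class, the source classes held 83.6% of collagen counts, beside 88.4% with 2.

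The following differences changed direction, none of them called. The whole-joint log2 fold change of Col11a1 was -0.059 with DESeq2, -0.02 with its size factors and -0.002 without haemoglobin, mitochondrial and rRNA-like counts. Without healthy 2, 3 and 4, which leaves healthy 1 alone against 5 sick mice and assumes that it varies as they do, that of Col11a2 was 1.81, and outside the marker classes those of Col1a1 and Col1a2 were 1.09 and 1.29. With cells of at least 400 genes Col1a1 and Col1a2 had -0.39 and -0.28 in the whole joint, and Col1a2 had 0.054 outside the classes. Leaving out single mice gave ranges of -0.42 to 1.58 for Col11a1, -1.06 to 1.08 for Col11a2, -0.14 to 1.72 for Col1a1 and -0.11 to 1.54 for Col1a2 in the whole joint. The ranges for Col5a1 were -0.16 to 0.21 outside the classes and -0.17 to 1.08 between the source classes. The osteoblast share difference, sick minus healthy in percentage points, was 0.0112 with 3 markers and 0.254 without healthy 2, 3 and 4, and ranged from -0.157 to 0.272 without single mice. The cause was not tested.

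The replicate numbers in the labels did not pair the mice: same-numbered mice correlated in their deviations at 0.173, -0.0479 and 0.0701. With this replicate block, 0 collagen genes were called in the whole joint, and Col3a1 had a log2 fold change of 3.22 (edgeR adjusted p 0.136). Col5a1 outside the classes turned to -0.021. The filter on low counts left 30 of the 37 genes untested in the whole joint.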
